A study of Mus musculus with 8 samples.

Results

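Cdx2, Eomes, Gata3, Elf5, Tfap2a, Tfap2c, Hand1 and Plac1 are genes of the trophoblast lineage, the part of the early embryo that builds the placenta. They were chosen by name, as 8 of the 21883 protein-coding genes of the RefSeq mouse gene table, and the locus of each was its mm10 gene interval with 100 kb on either side. Acetylation of lysine 27 of histone H3 (H3K27ac), which marks active enhancers and promoters, had been mapped by ChIP-seq, the sequencing of DNA recovered with an antibody to the mark. The cells were E14tg2a mouse embryonic stem cells of 129SV background carrying cRAF-ErT2. This fusion of a RAF kinase to a modified oestrogen receptor domain switches on the kinase ERK when 4-hydroxytamoxifen (4OHT) binds it. All cells were kept in serum medium containing LIF and 2 uM of the GSK3 inhibitor Chir99021, and 24 h before treatment were moved to serum with LIF and 250 nM PD173074, which inhibits FGF receptors. Clones a and b were left untreated or were given 250 nM 4OHT for 2 h, which gave 2 untreated and 2 treated libraries. No group without the fusion, and none with a solvent alone, was among the libraries compared, so effects of 4OHT itself and of ERK cannot be told apart here. The promoter that drives the fusion is not given in the sources used here.

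The peaks of the 4 libraries merged into 82792 regions, of which 142 overlapped the 8 loci. Of these 142 regions, 98 held a peak in untreated clone a, 86 in untreated clone b, 105 in treated clone a and 103 in treated clone b. Each deposited list held between 59170 and 63276 peaks over 50.4 to 53.1 Mb. All 8 embryonic stem cell markers examined, Pou5f1 and Nanog among them, had a peak in the gene or within 1 kb of it in every library. Of 8 trophoblast markers other than the 8 genes named above, 1 had such a peak in each library except treated clone b, where 2 had one, and Krt7, Gcm1, Tpbpa, Prl3d1, Ascl2 and Synb had none in any library. Primitive endoderm markers with a peak numbered 2 and 4 of 8 in the untreated clones and 3 and 5 of 8 in the treated clones, and Foxa2 and Pdgfra had none in any library. Fibroblast markers with a peak numbered 1 of 8 in each untreated library and 2 of 8 in each treated library, where Twist1 was added to Col1a1. Summed peak length at the fibroblast markers was 0.657 and 0.717 kb untreated and 2.43 and 2.91 kb treated, at the trophoblast markers 0.792 and 1.04 kb untreated and 2.11 and 3.05 kb treated, and at the primitive endoderm markers 1.62 to 2.02 kb untreated and 2.22 to 2.44 kb treated. At the embryonic stem cell markers it was 84.2 and 79.2 kb untreated and 92.3 and 85.5 kb treated. All 4 marker sets were thus longer in both treated libraries, and their part in the gains below was not tested.

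The first fate decision of the mouse embryo separates the trophectoderm from the inner cell mass, from which embryonic stem cells are derived. CDX2, a homeobox transcription factor, is needed for the trophectoderm and represses the pluripotency gene Pou5f1, and GATA3 acts beside it. EOMES, a T-box factor, ELF5, a factor of the ETS family, and the AP-2 factor encoded by Tfap2c serve the trophoblast stem cells that follow, which depend on FGF4 and the RAF-MEK-ERK cascade below its receptor. HAND1, a basic helix-loop-helix factor, drives the formation of trophoblast giant cells, and Plac1 is an X-linked gene expressed mainly in the placenta.

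Of the 8 genes, 6 had promoters in the RefSeq promoter table, built on GRCm38.p6, which shares its coordinates with mm10. These were Cdx2, Eomes, Gata3, Elf5, Tfap2a and Plac1, with 9 promoters between them. The 250 bases before the start site are printed for the 3 genes whose start sites lay in or closest to peaks that differed between the treatments, 5′ to 3′ on the strand of the gene. Capitals mark matches to the letters searched. The Cdx2 stretch lies on the minus strand at chr5:147307250-147307499, the Eomes stretch on the plus strand at chr9:118477939-118478188, and the Gata3 stretch on the minus strand at chr2:9878601-9878850.
Cdx2: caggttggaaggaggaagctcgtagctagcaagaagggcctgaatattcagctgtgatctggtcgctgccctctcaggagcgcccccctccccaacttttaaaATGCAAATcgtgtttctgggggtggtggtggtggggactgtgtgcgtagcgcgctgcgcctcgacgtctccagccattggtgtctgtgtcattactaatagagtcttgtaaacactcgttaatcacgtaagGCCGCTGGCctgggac
Eomes: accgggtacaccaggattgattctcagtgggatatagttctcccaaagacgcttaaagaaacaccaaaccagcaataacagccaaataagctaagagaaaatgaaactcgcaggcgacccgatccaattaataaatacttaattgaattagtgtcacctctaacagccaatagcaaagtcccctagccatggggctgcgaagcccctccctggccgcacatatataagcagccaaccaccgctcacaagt
Gata3: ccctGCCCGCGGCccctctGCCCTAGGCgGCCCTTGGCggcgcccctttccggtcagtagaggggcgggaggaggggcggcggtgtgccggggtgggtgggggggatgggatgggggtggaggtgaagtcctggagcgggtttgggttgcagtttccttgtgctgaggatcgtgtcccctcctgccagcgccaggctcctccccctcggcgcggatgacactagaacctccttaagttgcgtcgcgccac
Both strands were searched for 7 motifs, and the share of all 32851 promoters in the table with a match in the same 250 bases is given with each. They were ETS (CCGGAAG, 6.91%), AP-1 (TGANTCA, 6.75%), TCF/LEF (CTTTGAT, 3.21%), TEAD (GGAATGT, 3.25%), OCT (ATGCAAAT, 1.60%), CDX (TTTATNG, 9.81%) and AP-2 (GCCNNNGGC, 13.7%). The Cdx2 promoter held the OCT octamer, which POU factors such as OCT4 recognise, from 147 bases before the start, and an AP-2 match from 16 bases before it. The Gata3 promoter held 3 AP-2 matches, from 246, 231 and 221 bases before the start, and the Eomes promoter held none of the 7. No match overlapped another. Of the promoters not printed, 1 of the 2 of Elf5 held a TCF/LEF match and 1 of the 2 of Plac1 a CDX match, and those of Tfap2a held none. CpG dinucleotides stood at 0.690 of the number expected from base composition in the Cdx2 stretch, 0.621 at Eomes and 0.633 at Gata3, against a median of 0.373 over all promoters. The values of the 6 not printed were 0.729 and 0.563 at Tfap2a, 0.0814 and 0.402 at Elf5 and 0.196 and 0.284 at Plac1.

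These start sites were largely outside peaks. Of the 9 promoters, taken with 50 bases after the start, 7 had no peak in any library and none had a peak in all 4, whereas 28.1% of all promoters in the table had a peak in all 4. The Gata3 promoter had a peak in each treated library and in no untreated one, a pattern found at 1.98% of all promoters, and no promoter of the 6 genes had the reverse pattern, found at 0.454%. Within 2 kb of the Gata3 start site, however, peaks covered 1146 and 557 bp untreated and 1087 and 868 bp treated. At Cdx2 a peak reached into the promoter by 14 bp, in treated clone b.

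Since the deposited lists hold no read counts, the value compared was the length of each locus covered by peaks. A locus entered the test if the 4 libraries averaged at least 1000 bp there, and 17989 loci did. They were compared with limma on log2(covered bp + 500), which understates changes of short lengths. Adjusted p-values are Benjamini-Hochberg values over those loci, called at 0.05, and apply to these clones. The variance behind them combines the spread of the clones at a locus with that seen over all loci. With clone as a factor, differences that the clones keep in both treatments are taken out. The variance then comes mostly from the spread over all loci (limma prior degrees of freedom 13.2, against 3.35 without that factor). Blocked p-values thus measure little of the spread at the locus itself. In bulk chromatin, a change in how many cells carry the mark and a change in the mark per cell cannot be told apart. A region is called gained where both treated libraries and neither untreated one had a peak, and lost in the reverse case. The 4 values of a locus allow no exact permutation test below 0.333. The depth of the libraries is unknown, so a missing peak does not show that the mark was absent.

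**Figure D1:**
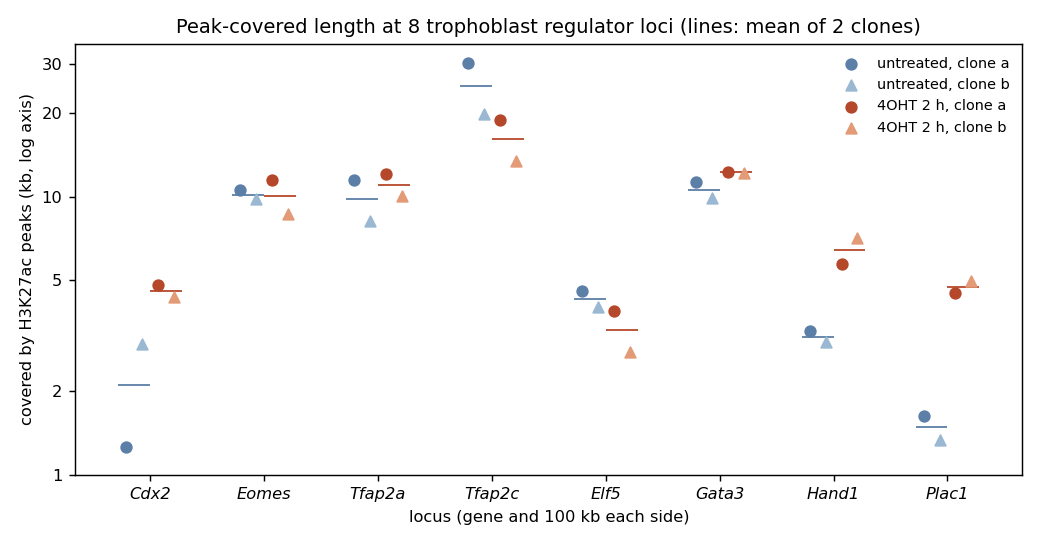
Length covered by H3K27ac peaks (kb, log axis) at each of the 8 loci, with 1 point per library and a line at the mean of the 2 clones of a treatment. Both treated libraries lie above both untreated ones at Cdx2, Gata3, Hand1 and Plac1, and below both at Tfap2c and Elf5.

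Covered length passed the test at Hand1 and Plac1, where it rose, and at none of the 8 loci did it fall by that test. At unadjusted p under 0.05, limma placed 3 of the 8 loci longer, Cdx2, Hand1 and Plac1, and 0 shorter. At that cut-off 3044 of all 17989 loci were longer and 2131 shorter. By adjusted p, 3.63% of all loci were called longer in the treated libraries and 2.37% shorter. With clone as a factor, 3 of the 8 loci, Cdx2, Hand1 and Plac1, were called longer and 1, Tfap2c, shorter, beside 26.3% longer and 19.7% shorter of all loci. Treated and untreated values did not overlap at 6 of the 8 loci. Both treated libraries were above both untreated ones at 4, as at 35.3% of all loci, and below at 2, as at 23.0%. The median log2 change was 0.19 over the 8 loci and 0.06 over all loci. Of the 142 regions, 16 were gained (11.3%) and 8 lost (5.63%), against 6.20% and 6.26% of all regions. With the upper 50% of each list by score, 4 of 70 regions (5.71%) were gained, against 6.18% over the genome. A further 43 were called in all 4 libraries, which is 30.3% against 36.4% of all regions.

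Cdx2 (chr5:147300900-147307249) was, of the 6 loci with a start site in the table, the one with a gained region closest to it. Its covered length was 1.26 kb in untreated clone a, 2.96 kb in untreated clone b, 4.81 kb in treated clone a and 4.37 kb in treated clone b. Both treated values were thus above both untreated ones, and the untreated clones differed more from each other than the treated clones did. The mean went from 2.11 ± 1.20 kb (SD, n = 2) to 4.59 ± 0.306 kb (SD, n = 2), a log2 change of 1.05 ± 0.34 (SE) with limma adjusted p = 0.124. With clone as a factor the limma adjusted p was 0.00147. The log2 change was 0.56 without untreated clone a and 1.53 without untreated clone b.

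The gains at Cdx2 were in the gene and within 10 kb of it. There, peaks covered 0 kb in untreated clone a, 0.557 kb in untreated clone b, 4.49 kb in treated clone a and 3.26 kb in treated clone b. On the log2(covered bp + 500) scale the change in this narrower window was 2.58, and 2.57 with 50 kb on either side. The untreated means there, 0.279 and 0.399 kb, were under the 1000 bp minimum, so the narrower windows entered the fit through the treated libraries alone and no test is read from them. From 50 to 100 kb away the order was turned, with 1.26 and 2.16 kb untreated and 0 and 0.554 kb treated.

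Among the 11 regions of the Cdx2 locus, 3 were gained, 1 was lost and none was called in all 4 libraries. The widest gained region, chr5:147305244-147307213, lay inside the gene and began 36 bp downstream of the start site printed above. Peaks covered 1825 bp of it in treated clone a and 1798 bp in treated clone b, and these were the only peaks inside the gene interval in any library. By the authors' score they ranked at the 71.6 and 51.2 percentile of their lists. A gained region of 1140 bp stood 7.86 kb upstream of the start site at chr5:147315113-147316252, inside the neighbouring gene Urad, with 1089 bp covered in each treated library. The third, chr5:147292219-147292653, lay 8.25 kb beyond the far end of the gene, with 379 and 375 bp covered. Untreated clone b had 2 short peaks between that region and the gene, of 355 and 202 bp. The lost region, chr5:147379849-147380470, lay 72.6 kb away inside Flt3, a receptor tyrosine kinase gene of blood progenitors. It was covered by 570 and 622 bp in the untreated libraries. Next to it, a region also inside Flt3 held 686 and 1537 bp untreated against 0 and 200 bp treated.

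**Figure D2:**
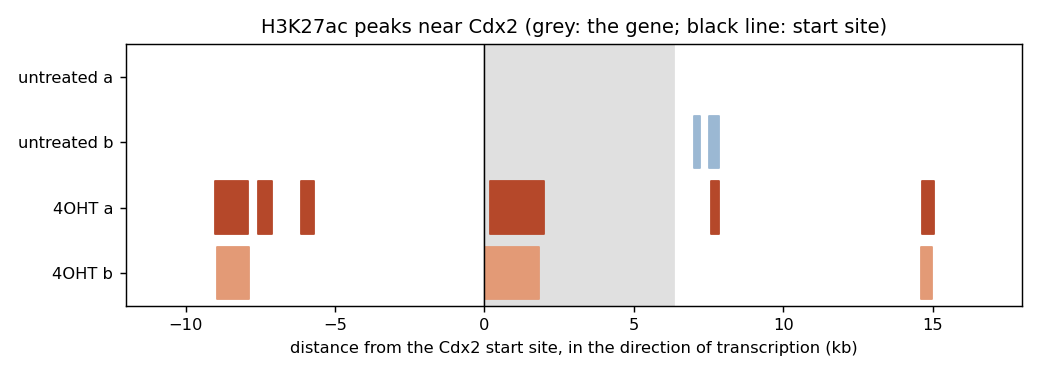
H3K27ac peaks of the 4 libraries (rows) near Cdx2, by distance from its start site in kb in the direction of transcription, with the gene in grey. The peaks inside the gene, 1825 and 1798 bp long, occur in the treated libraries, and the gained regions on either side lie within 10 kb of the gene.

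Gata3 (chr2:9857078-9887953), a zinc-finger factor gene also known for T helper cells, carried the mark in every library. Its covered length was 11.3 kb and 9.90 kb in untreated clones a and b and 12.2 kb in each treated clone. Both treated values were above both untreated ones, and the higher untreated value lay closer to the treated ones than to the other untreated one. The log2 change of 0.20 ± 0.12 (SE) did not pass (limma adjusted p = 0.344). The gene and 10 kb around it held most of the covered length, 10.6 and 9.14 kb untreated and 10.99 and 9.90 kb treated, and there the treatments overlapped. Farther out both treated values were higher. They were 0.513 and 1.31 kb against 0.277 and 0.359 kb from 10 to 50 kb, and 0.741 and 0.986 kb against 0.437 and 0.397 kb from 50 to 100 kb. Among its 20 regions 10 were called in all 4 libraries, the most of any of the 8 loci. The widest of them, chr2:9856118-9859455, spanned the downstream end of the gene and was covered by 2394, 3080, 2610 and 2779 bp in untreated a, untreated b, treated a and treated b. The only gained region, chr2:9878778-9879040, was short and lay at the start site. It began 178 bp upstream of the start and was covered by 239 bp in treated clone a and 200 bp in treated clone b, at the 18.2 and 22.3 percentile of their lists by score. On the other side of the start, 214 bp downstream, untreated clone a alone had a peak of 350 bp, at the 41.4 percentile. A region 796 bp downstream was called in all 4 libraries. In both treated libraries the peak of the gained region covered all 3 AP-2 matches marked above in the Gata3 promoter. No region of the locus was lost.

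Eomes (chr9:118478186-118486132) did not change over its whole locus beyond the spread of the clones. Peaks covered 10.5 and 9.82 kb untreated and 11.4 and 8.64 kb treated in clones a and b, so that treated clone a was the highest and treated clone b the lowest. The log2 change was -0.03 ± 0.17 (SE, limma adjusted p = 0.922). Near the gene the order was different. Within 10 kb, 1.83 and 2.06 kb were covered untreated against 3.18 and 3.34 kb treated, a log2 change of 0.62 with limma adjusted p = 0.0677. A region called in all 4 libraries began 81 bp downstream of the Eomes start site, at chr9:118478270-118479563. It was covered by 512 and 624 bp untreated and by 1294 and 1208 bp treated. A gained region of 512 bp lay 1.63 kb beyond the gene at chr9:118487765-118488276. The other gained region (98.6 kb away) and the lost one (11.2 kb away) lay nearest to Golga4, which encodes a golgin of the trans-Golgi. A distal region 71.9 kb upstream, chr9:118404134-118406246, was called in all 4 libraries and covered by 1866 to 2102 bp. The region beside it, chr9:118406341-118408194, was covered by 1821 and 1761 bp untreated and by 1431 and 918 bp treated. From 10 to 50 kb both treated values were lower, 1.97 and 1.56 kb against 2.33 and 2.69 kb. From 50 to 100 kb the treatments overlapped, with 6.38 and 5.07 kb untreated and 6.29 and 3.74 kb treated.

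Elf5 (chr2:103412098-103450989) had no peak inside the gene in any library. Its locus held 4.58 and 4.01 kb untreated and 3.89 and 2.77 kb treated, with both treated values below both untreated ones. The log2 change was -0.34 ± 0.21 (SE, limma adjusted p = 0.342). Most of that length lay in or beside neighbouring genes. Of 6 regions, 4 were called in all 4 libraries, of which 3 lay in or beside Cat, the catalase gene, and 1 lay 6.10 kb from Ehf, another gene of the ETS family. The region nearest to Elf5 was a peak of 235 bp in treated clone a, inside Cat. No region was gained, and the lost one (chr2:103373858-103374434) lay 37.7 kb upstream, with 212 and 538 bp covered in the untreated libraries.

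The AP-2 genes Tfap2a and Tfap2c encode factors that bind the same kind of GC-rich site. At Tfap2a (chr13:40713802-40738238), 11.5 and 8.18 kb were covered untreated and 12.1 and 10.1 kb treated. These values overlapped between the treatments, and the log2 change was 0.18 ± 0.20 (SE, limma adjusted p = 0.599). It was 0.70 with 50 kb on either side (limma adjusted p = 0.0967) and 0.67 with 10 kb (0.106). Inside the gene both treated libraries were higher, with 8208 and 7461 bp against 5918 and 4288 bp untreated. From 50 to 100 kb away they were lower, with 1.36 and 0.702 kb against 4.33 and 3.25 kb. The widest region inside Tfap2a, chr13:40714838-40720287, was called in all 4 libraries and covered by 3879 and 2891 bp untreated and 5365 and 4719 bp treated. A distal region 62.2 kb from the gene, chr13:40648490-40651648, went from 3159 and 2321 bp to 1362 and 702 bp. Of its 19 regions 3 were gained, 1 of them inside the gene and the others 9.54 and 18.6 kb away, and 2 were lost, 65.9 and 78.8 kb away, the farther one nearest to Gcnt2.

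Tfap2c (chr2:172545678-172558622) had the longest covered length of the 8 loci in each library and a shorter one in the treated than in the untreated library of each clone. It held 30.2 and 19.8 kb untreated and 18.8 and 13.4 kb treated in clones a and b. The highest treated value lay just under the lowest untreated one, and clone a was above clone b in each treatment. The mean went from 25.0 ± 7.36 kb (SD, n = 2) to 16.1 ± 3.83 kb (SD, n = 2), a log2 change of -0.61 ± 0.25 (SE) that did not pass without a clone term (limma adjusted p = 0.189). With clone as a factor the limma adjusted p was 1.57e-05, and the change was -0.67 in clone a and -0.55 in clone b. The value was -0.31 and -0.91 without untreated clone a or b, -0.85 and -0.37 without treated clone a or b, and -1.35 with 50 kb on either side (limma adjusted p = 0.0887).

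At Tfap2c the widest gap between the treatments lay at middle distance. From 10 to 50 kb from the gene, 18.8 and 9.46 kb were covered untreated and 5.62 and 2.55 kb treated. From 50 to 100 kb the treated values were the higher ones, 10.1 and 8.79 kb against 8.06 and 6.87 kb. Over the gene and 10 kb around it both treated values were lower, 3.09 and 2.06 kb against 3.38 and 3.48 kb. Inside the gene alone the treatments overlapped, with 2080 and 2179 bp untreated and 2491 and 2060 bp treated. A region 18.9 kb from the gene, chr2:172577554-172580493, was called in all 4 libraries and covered by 2640 and 2046 bp untreated and 904 and 736 bp treated. All 3 lost regions lay 22.1 to 27.1 kb from the gene, the widest being chr2:172521875-172523558 with 1684 and 528 bp. Among the 16 gained regions of the 8 loci the widest was also at Tfap2c, 84.4 kb away at chr2:172643045-172645982. It was covered by 2801 and 2696 bp in the treated libraries, at the 91.9 and 95.4 percentile of their lists by score, and no peak touched it in the untreated libraries.

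**Figure D3:**
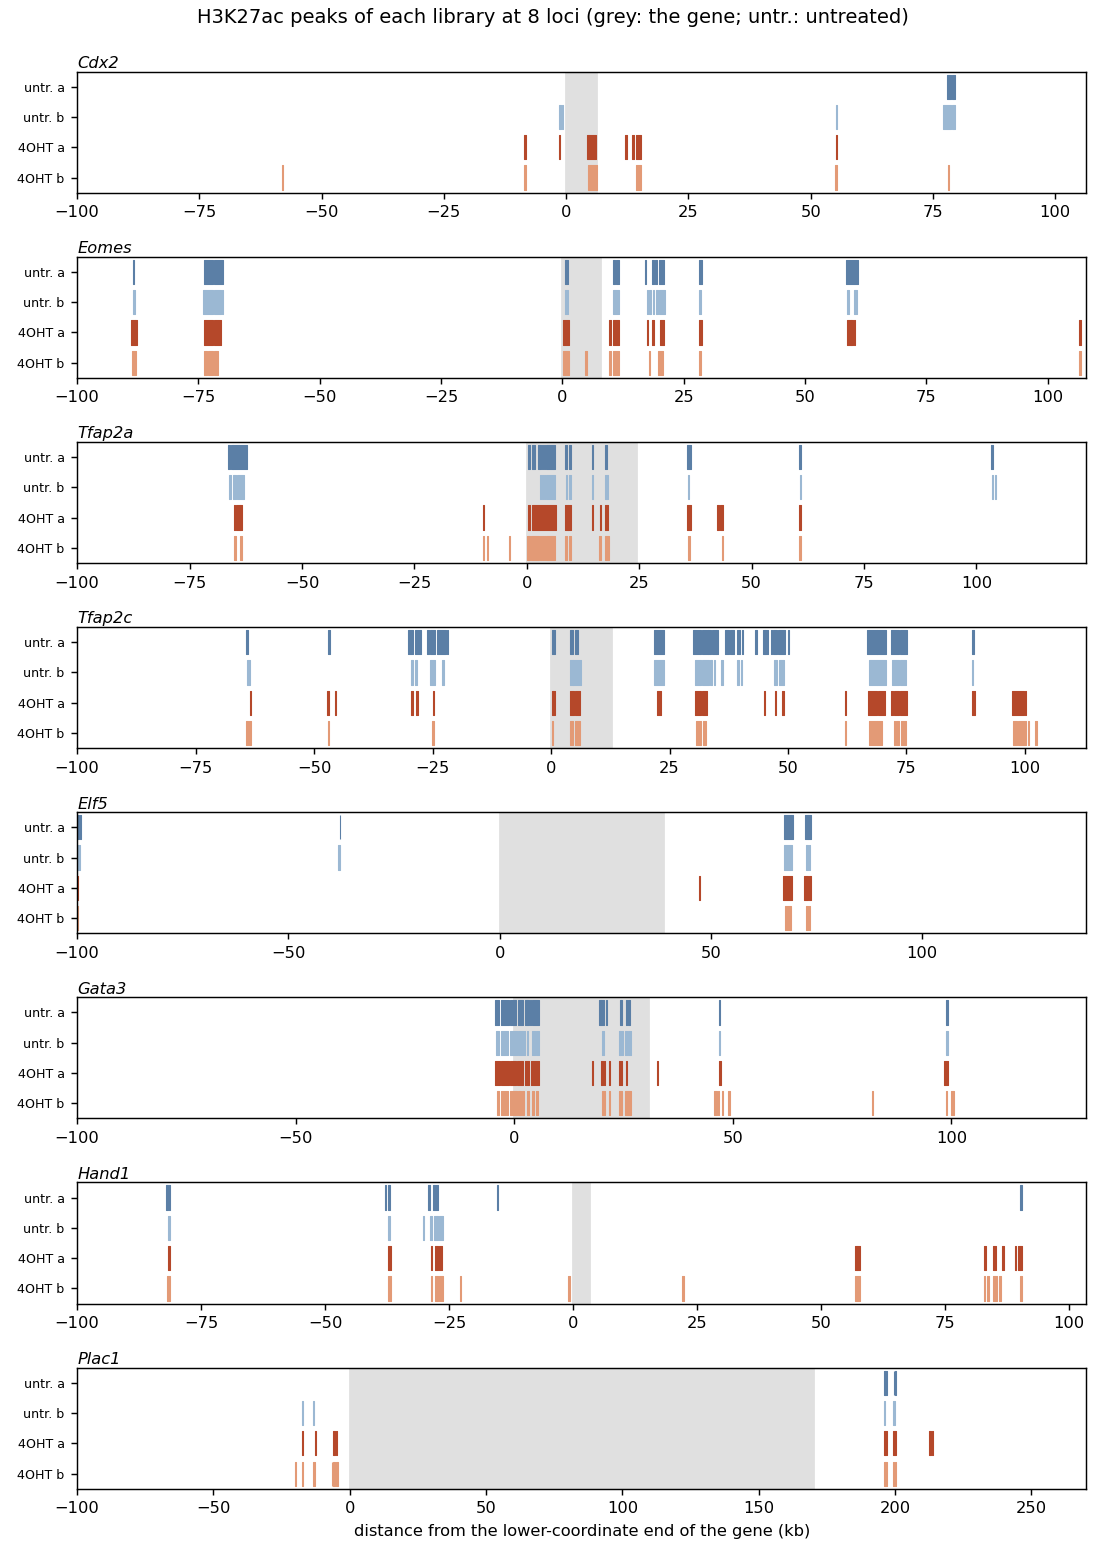
H3K27ac peaks of each library (rows) over the 8 loci, by distance in kb from the lower-coordinate end of the gene (grey). The treated rows hold peaks in the Cdx2 gene that the untreated rows lack, and the Tfap2c rows thin out with treatment between 10 and 50 kb from the gene.

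Hand1 (chr11:57828713-57832147) passed the test through distal regions. Its locus held 3.28 and 2.996 kb untreated and 5.74 and 7.11 kb treated, so that both treated libraries were well above both untreated ones. The mean went from 3.14 ± 0.201 kb (SD, n = 2) to 6.42 ± 0.965 kb (SD, n = 2), a log2 change of 0.92 ± 0.17 (SE, limma adjusted p = 0.0464). Within 50 kb of the gene the log2 change was 0.08 (limma adjusted p = 0.824). The gene itself held no peak in any library, and the only one within 10 kb was a peak of 359 bp in treated clone b. From 50 to 100 kb, 0.877 and 0.296 kb were covered untreated and 3.44 and 3.88 kb treated. Of the 3 gained regions, the widest lay 53.3 kb from the gene at chr11:57885419-57886481, with 959 and 1020 bp covered. The others, 79.3 and 81.2 kb away, stood nearer to Larp1, which encodes an RNA-binding protein. The log2 change was 0.98 without untreated a, 0.87 without untreated b, 1.07 without treated a and 0.78 without treated b. The call did not hold without any 1 of the libraries. Without either untreated library no locus at all was called, so those fits cannot decide it for Hand1. With the upper 50% of peaks by score the log2 change was 0.46 (limma adjusted p = 0.676).

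Plac1 (chrX:53069993-53240110) rose by the largest log2 change of the 8 loci. Peaks covered 1.63 and 1.34 kb untreated and 4.50 and 4.98 kb treated, with a wide gap between the treatments. The mean went from 1.49 ± 0.209 kb (SD, n = 2) to 4.74 ± 0.339 kb (SD, n = 2), a log2 change of 1.40 ± 0.19 (SE, limma adjusted p = 0.0330). The log2 change was 1.51 without untreated a, 1.29 without untreated b, 1.34 without treated b and 1.47 without treated a. The call held without treated a only. No locus at all was called without either untreated library, so those fits cannot decide it for Plac1. No peak lay inside Plac1 in any library. Both gained regions lay on the side of its 3′ end, at chrX:53063715-53064501 (530 and 787 bp covered) and chrX:53064814-53065738 (390 and 925 bp), 5.49 and 4.26 kb from the gene. A run of 5 further regions on that side, 6.51 to 19.7 kb from the gene, was called in some libraries only. The 6 regions beyond the start site lay in or beside Fam122b and Fam122c. At Fam122b and 1 kb around it the covered length was 1633 and 843 bp untreated and 1936 and 1805 bp treated.

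**Figure D4:**
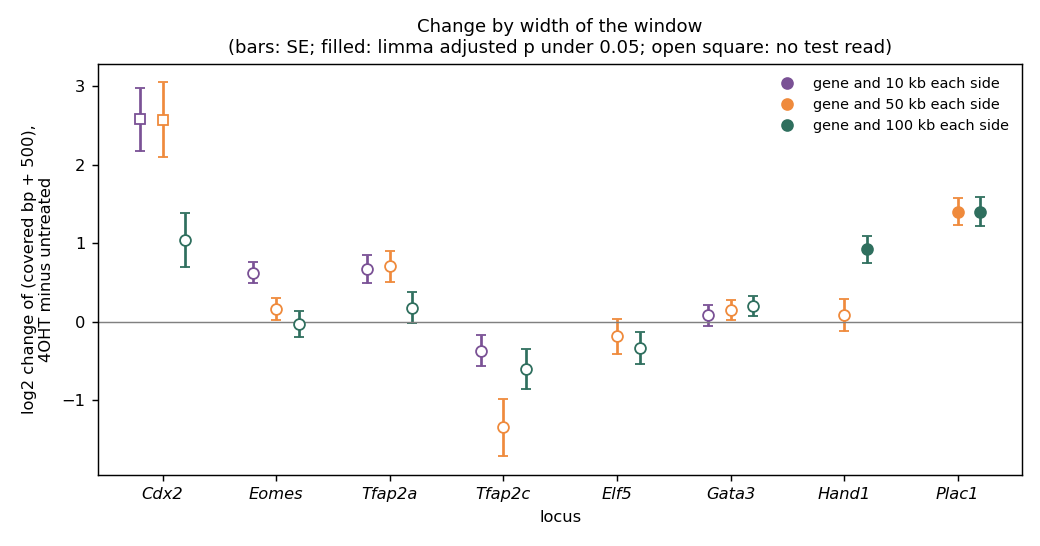
Log2 change of covered length (4OHT minus untreated, with SE) at each locus with 10, 50 or 100 kb on either side of the gene, filled where the limma adjusted p was under 0.05 and drawn as an open square where the locus passed the length minimum through the treated libraries alone (Cdx2 with 10 and 50 kb). Plac1 is called with 50 and 100 kb and Hand1 with 100 kb, while Elf5, Hand1 and Plac1 had too little peak length to be fitted with 10 kb. The 50 and 100 kb windows of Plac1 hold the same peaks, so these calls are not separate.

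Of the 142 regions at the 8 loci, 62 (43.7%) lay within 20 kb of the gene and 21 (14.8%) inside it. Of the 16 gained regions, 10 lay within 20 kb and 3 inside, at Cdx2, Gata3 and Tfap2a. Of the 8 lost regions, 1 lay within 20 kb and none inside. Whether the distances differ was not tested. With 10 kb on either side the loci held 44 regions, of which 9 were gained, 3 of 7 at Cdx2, 2 of 3 at Plac1, 2 of 10 at Tfap2a, 1 of 7 at Eomes and 1 of 12 at Gata3, and none was lost. Among all regions within 10 kb of a protein-coding gene, 6.24% were gained and 5.16% lost. The nearest protein-coding gene was the member of the locus itself for 12 of the 16 gained and 5 of the 8 lost regions, and for 87 of all 142 (61.3%). Gained and lost regions were both short. Their medians were 514.5 and 570 bp at the 8 loci and 527 and 541 bp over the genome, against 1263 bp for all regions called in every library. Of the 43 regions at the 8 loci called in all 4 libraries, 9 were longer in both treated than in both untreated libraries, 4 of them at Tfap2a, and 11 were shorter, 4 of them at Tfap2c. Over all regions called in all 4 libraries these shares were 27.3% and 21.5%.

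**Figure D5:**
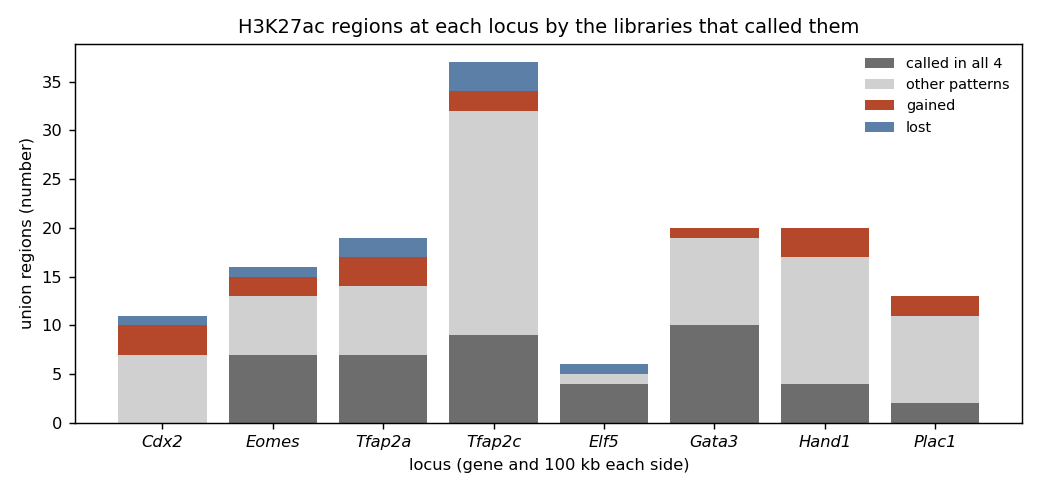
Number of H3K27ac regions at each locus by the libraries that called them: gained, lost, called in all 4, or another pattern. Cdx2, Tfap2a and Hand1 have 3 gained regions each, and Elf5 has none.

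Other genes of the trophoblast programme, 36 in all, were listed by role from textbook knowledge. Of these, 30 had enough peak length to be fitted, 1 was called longer and 2 shorter by limma without a clone term, and 12 longer and 8 shorter with clone as a factor, with a median log2 change of 0.01. These are 3.33% and 6.67% of the 30, beside 3.63% and 2.37% of all loci, and 40.0% and 26.7% with clone as a factor, beside 26.3% and 19.7%. The counts include Krt7 (untreated mean 0.113 kb) and, with clone as a factor, Fgfr2 (treated mean 0.9035 kb). Each met the 1000 bp minimum through 1 treatment alone, so nothing is read from their part in these counts or in the median. The windows of the 36 genes, some of which overlap each other, held 637 regions, 45 gained (7.06%) and 35 lost (5.49%), beside 6.20% and 6.26% of all regions. Among 8 genes of trophectoderm specification, Amotl2, a regulator of Hippo signalling, fell from 28.8 and 28.5 kb to 17.9 and 18.9 kb (log2 change -0.63 ± 0.10 SE, limma adjusted p = 0.0383). Rbpj, the DNA-binding partner of Notch, held the longest length in this group, 53.3 kb on average untreated and 55.5 kb treated (log2 change 0.05, limma adjusted p = 0.815). Among 8 genes of stem cell maintenance, Id2, an inhibitor of basic helix-loop-helix factors, fell from 14.8 and 11.5 kb to 4.998 and 4.04 kb (log2 change -1.44 ± 0.18 SE, limma adjusted p = 0.0322). Esrrb, an orphan nuclear receptor of both embryonic and trophoblast stem cells, had 45.3 and 51.5 kb on average (log2 change 0.18, limma adjusted p = 0.316, and 0.00114 with clone as a factor). Tet1, a methylcytosine dioxygenase, had 31.1 and 32.2 kb on average. Of the 20 genes of differentiated trophoblast, 14 were fitted. Krt7, a keratin of simple epithelia and trophoblast, had 0 and 0.226 kb untreated and 1.69 and 4.33 kb treated (log2 change 2.43). It was the locus called longer, but its untreated mean of 0.113 kb was under the 1000 bp minimum, so it was tested through its treated libraries alone and nothing is read from that call. No locus at all was called without untreated clone a or b. The log2 change was then -1.26 and -1.62 at Id2 and -0.62 and -0.63 at Amotl2. Without treated clone a or b it was -1.58 and -1.30 at Id2 and -0.59 and -0.66 at Amotl2. In these fits too, Amotl2 missed the threshold. Tfeb and Lifr held the longest untreated lengths in that group, 30.2 and 18.8 kb on average, and had log2 changes of 0.01 and -0.31 (limma adjusted p = 0.959 and 0.147, the latter 0.00605 with clone as a factor).

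The loci most like Cdx2 over the 4 libraries, by Euclidean distance on log2(covered bp + 500), were those of Cnnm3, Iqsec3, Slc7a14, Olfr225 and Lbhd2, at distances of 0.318 to 0.448. Their log2 changes ran from 0.78 to 1.33, and none was called by limma, with adjusted p from 0.0764 to 0.298. The loci were picked by the same 4 values, so changes near that of Cdx2 follow from the choice and are no separate result. With 4 libraries in 2 groups this likeness is a description of these libraries.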

How the data were processed

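H3K27ac ChIP-seq libraries of E14tg2a cells were compared: clones a and b, each without treatment and after 2 h in 250 nM 4OHT. The 4 inputs were not used here. Per the submitters' processing notes, the authors used Bowtie2, bedtools and MACS2 on mm10. Tool versions, calling thresholds and the role of the inputs were not given in the sources used here. Per the labels' protocols, the antibody was Abcam ab4729 and libraries were made with an NEB kit. Each deposited file lists the peaks of 1 library with a score, the authors' own value of unstated scale, which served to rank peaks inside 1 list and to select the upper ones. The lists hold no read counts, so depth is unknown.

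Peaks overlapping by 1 bp or more were merged into regions. Covered length per locus, unscaled, was compared with limma 3.58.1 (trended prior) in R 4.3.3, with no clone term, and the code was tested on simulated data. Tests of neighbouring genes are linked, because their windows hold the same peaks, and covered length follows the extent of calling in each library. Distances are to the gene interval unless a start site is named. Intervals came from a RefSeq table of GRCm38.p6. Treatments are paired by the clone letter that the labels give: deviations of the same clone from the group means had r = 0.636 over 17989 loci. Blocked values are printed where they change a call.

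The 8 members and all lists were chosen with earlier results of these data known. Named besides the members were the listed trophoblast genes that passed the threshold, the 2 per role with the longest untreated length, genes nearest to gained or lost regions, and the 5 loci most like Cdx2. Neighbours of shared regions, and the 3 promoters printed, were chosen with their values in view. Alternatives changed the window, pseudocount, length filter, scaling, clone term, peaks used, overlap and merging rules and libraries.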

Additional observations from a re-analysis of the deposited data

Results flagged for a closer look

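At Eomes the clones moved in opposite directions: the log2 change of covered length was 0.11 in clone a and -0.17 in clone b. The difference between the clones was not tested, since each clone had 1 library per treatment.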

How the results depend on the processing

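Limma called 653 of all loci longer and 427 shorter. With 10 kb windows these counts were 391 and 277, with no length filter 47 and 46, with the upper 50% of peaks by score 263 and 171, and with the top 20000 peaks 1 and 0 (1420 shorter at unadjusted p under 0.05). With 1 library left out they ran from 0 to 435 and from 0 to 513; both were 0 without either untreated library, where 2121 to 2220 loci were longer and 1336 to 1629 shorter at unadjusted p under 0.05. In the paired fit, with clone as a replicate block, they were 4733 and 3540, and among the 8 loci 1 was called shorter; beyond the calls named beside the results, the block changed none among the 8. Of the 8 loci, 2 were called longer, 1 with 10 kb windows (Cdx2, through its treated libraries alone), 0 with no length filter, with the upper 50% or with the top 20000 peaks, and 0 to 1 with a library left out. The Eomes log2 change was 0.16 with 50 kb, 0.62 with 10 kb, 0.14 with the top 20000 peaks, and -0.22 to 0.16 with a library left out. That of Tfap2a was 0.70 with 50 kb, 0.67 with 10 kb, -0.10 with the upper 50% and -0.0576 to 0.41 with a library left out. Gained regions at the 8 loci (16 of 142) numbered 4 of 70 with the upper 50% (5.71%, and 6.18% over the genome). They were 4 of 42 with the top 20000 peaks (9.52%, and 6.93% over the genome). With 10 kb they were 9 of 44, beside 6.24% of all regions within 10 kb of a protein-coding gene. Of the 142, 34 were gained within clone a and 41 within clone b, beside 13289 and 15582 of all 82792 regions. With a library left out 19 to 35 were gained, beside 7101 to 13200 of all regions. Lost regions (8 of 142) numbered 2 of 75 with peaks within 1000 bp merged, beside 2508 of 46370 over the genome. They were 4 of 70 with the upper 50% (5.71%, and 6.10% over the genome). With the top 20000 peaks they were 2 of 42 (4.76%, and 6.12% over the genome). They were 5 of 105 with 50 kb and 5 of 87 by nearest gene. With 10 kb they were 0 of 44, beside 5.16% of all regions within 10 kb of a protein-coding gene. Within clones a and b, 24 and 23 of the 142 were lost, beside 14912 and 14839 of all 82792 regions. With a library left out 9 to 23 were lost, beside 7171 to 12515 of all regions. The log2 change of Rbpj was -0.0124 with 50 kb, -0.0877 with 10 kb, and -0.0657 to 0.17 with a library left out. That of Tet1 was -0.0722 with the upper 50%, -0.0606 with the top 20000 peaks, and -0.0844 to 0.19 with a library left out. That of Tfeb was -0.0102 with 10 kb, -0.13 with the upper 50%, -0.18 with the top 20000 peaks, and -0.0949 to 0.12 with a library left out. The cause of these differences was not tested; fewer libraries or peaks enter some of them by construction. Hand1 and Plac1 could not be fitted with the top 20000 peaks, nor those loci and Elf5 with 10 kb. Peak lists without read counts set the limit: short regions near the calling threshold cannot be told from absent ones.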

Other observations

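Hprt lies inside the Plac1 window, on the side of the gained regions. No library had a peak in Hprt or within 1 kb of it (chrX:52988078-53021660), at 0 bp in all 4. E14tg2a is known as an HPRT-deficient line, and the part of that in this value was not tested.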
